A study of Homo sapiens with 3 samples.

Results

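RSL-3 survivors were compared with untreated cells by the column of RSL-3 survivors and the column of untreated cells in the sgRNA count table of the RSL-3 screen. These are 2 of the 3 libraries of a pooled CRISPR knockout screen in Huh-7, an established human hepatocellular carcinoma line, and all 119461 sgRNAs were used. Cells of every group had been transduced with GeCKOv2 lentivirus, aimed at an MOI of 0.3, selected with puromycin and then expanded. The untreated group received no inducer, and the RSL-3 group was exposed to 0.1 µM RSL-3 for 24 h. The third group, given here only beside single results, received 0.03 µM RSL-3 with 50 mM linoleic acid (RSL-3/LA) for 24 h. Survivors of both treatments were regrown and challenged again. With 1 library per group there is no replicate check, no difference was tested, and changes acquired by single surviving clones cannot be told apart from the action of the sgRNA they carry.

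Ferroptosis is a form of cell death in which iron-dependent peroxides of polyunsaturated phospholipids damage membranes. GPX4 reduces these peroxides with glutathione, and RSL-3 blocks GPX4, so cells survive RSL-3 when fewer peroxides form or when another antioxidant replaces GPX4. In a pooled screen each sgRNA guides Cas9 to a gene and also labels the descendants of the cell it entered, so its read count after selection tells how many of the surviving cells descend from its carriers.

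The total count was 1466896 in untreated cells and 1467705 in RSL-3 survivors, and counts are given per 1000000 counts of the library (CPM), so that 1 count is 0.68 CPM. The sgRNAs comprise 111626 against 18992 genes, 6835 against 1823 microRNAs, and 1000 non-targeting controls. At least 1 count was found for 19153 sgRNAs (16.0%) in untreated cells and for 2938 (2.46%) in RSL-3 survivors. An sgRNA with 10 or more untreated counts is called measurable here, because its CPM ratio, survivors over untreated cells, could show a change in both directions. There were 15047 measurable sgRNAs against 11169 targets, with a median of 87 and a maximum of 712 untreated counts, and they held 99.1% of the untreated counts. Where a count was 0, the share could still be as high as 0.000204% of the survivor library, the level of 3 counts. Folds given as "at least" set a 0 to 3 counts and take the other count as exact. The exact intervals, which also cover the error of the other count, allow smaller folds. The intervals are exact 95% intervals and cover no error besides counting, as reads from PCR can repeat the same molecule.

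The microRNA sgRNAs are the members whose target sequence can be shown, and the mature microRNAs below belong to the targets with the highest measurable ratios (hsa-mir-921 and hsa-mir-3152) and with the highest survivor counts (hsa-mir-3666 and hsa-mir-668). The sequences and positions are those of RefSeq on GRCh38.p14, with the seed, bases 2 to 8 from the 5′ end, in capitals.
hsa-miR-921 (chr1:166154773-166154797, minus strand): cUAGUGAGggacagaaccaggauuc
hsa-miR-3152-5p (chr9:18573316-18573337, plus strand): aUUGCCUCuguucuaacacaag
hsa-miR-3152-3p (chr9:18573350-18573371, plus strand): uGUGUUAGaauaggggcaauaa
hsa-miR-3666 (chr7:114653373-114653393, plus strand): cAGUGCAAguguagaugccga
hsa-miR-668-5p (chr14:101055264-101055282, plus strand): uGCGCCUCgggugagcaug
The seeds of these 5 mature microRNAs are all different.

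Most sgRNAs of untreated cells were not seen again. Of the 15047 measurable sgRNAs, 14465 had 0 counts in RSL-3 survivors and 582 (3.87%, interval 3.57% to 4.19%) had at least 1. Among the retained sgRNAs, 401 (2.66% of the measurable) were counted at a lower CPM than in untreated cells, 142 had a ratio from 1 to under 10, and 39 were at least 10-fold higher, which is 0.259% (0.184% to 0.354%) of the measurable sgRNAs. The interval of the ratio lay wholly below 1 for 362 retained sgRNAs, wholly above 1 for 153, and held 1 for 67. The median ratio of the retained sgRNAs was 0.370, the 10th percentile was 0.0102 and the 90th was 5.57.

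The share retained differed little with abundance in untreated cells, from 3.61% at 10 to 19 untreated counts to 4.69% at 200 or more. The share at least 10-fold higher was 0.556% (8 of 1439) at 10 to 19 untreated counts and 0.0957% (1 of 1045) at 200 or more. The single sgRNA of that last class targets OR1L1, an olfactory receptor. Of the 12534 sgRNAs with at least 30 untreated counts, 12041 were at 0, which is at least 10-fold lower if a 0 is set to 3 counts. By the exact interval, 30 counts are too few for this. For a PRDX6 sgRNA with 30 untreated and 0 survivor counts, the interval reached a ratio of 0.131.

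**Figure D1:**
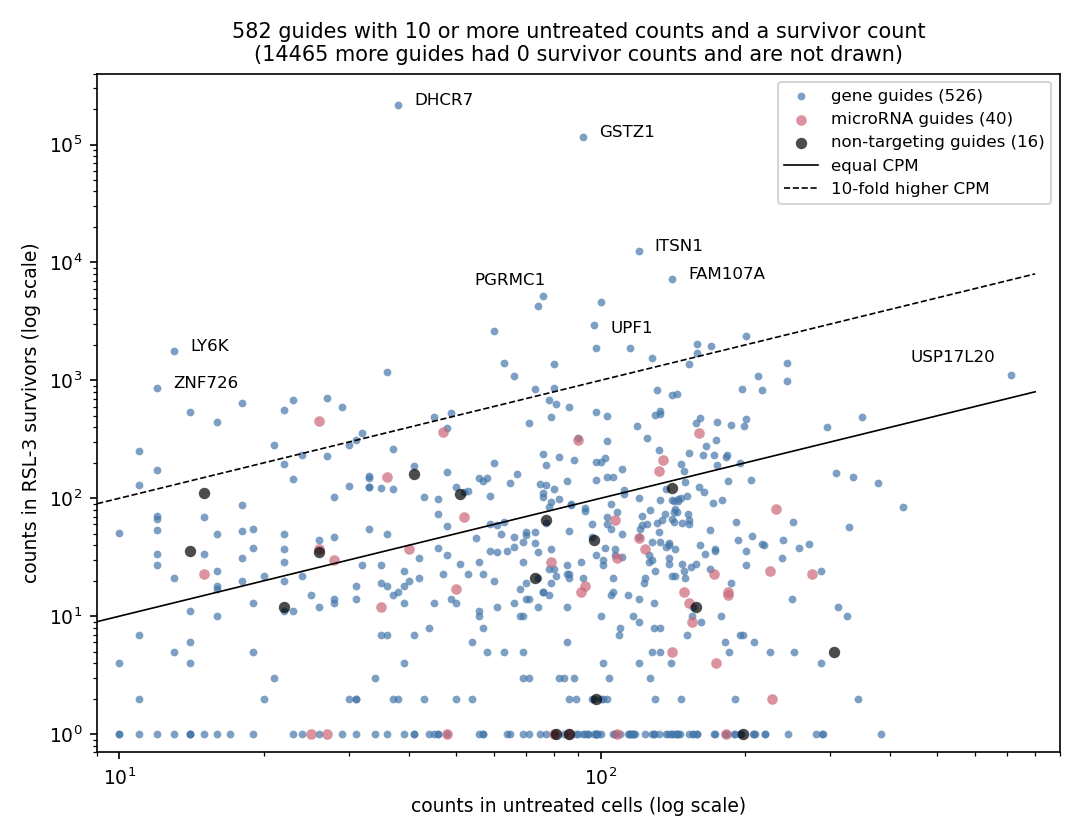
Counts of the 582 retained measurable sgRNAs in untreated cells (horizontal, log scale) and RSL-3 survivors (vertical, log scale), 1 point per sgRNA, for gene (526), microRNA (40) and non-targeting (16) sgRNAs, with lines of equal CPM and of 10-fold higher CPM. DHCR7 and GSTZ1 stand above the other sgRNAs at 216198 and 116136 survivor counts, no non-targeting sgRNA reaches the 10-fold line, and a row of points lies at 1 survivor count.

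Of the 5 sgRNAs with the highest untreated counts, 1 was counted in survivors. The most abundant one, against the deubiquitinase gene USP17L20, had 712 untreated counts and 1103 survivor counts, a ratio of 1.55 (1.41 to 1.70). The next 4 were at 0 in survivors: PPIP5K2, an inositol pyrophosphate kinase, from 693 counts (at least 231-fold lower), CHCHD6, a protein of mitochondrial cristae, from 645 (at least 215-fold), TICRR, a replication initiation factor, from 644 (at least 214.8-fold), and hsa-mir-1538 from 559 (at least 186-fold). USP17L20 belongs to a multicopy gene family, and whether its sgRNA also matches other copies was not tested, since sgRNA sequences were not used here.

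Non-targeting sgRNAs give the background of this comparison, as their carriers have no intended gene edit. Of 225 measurable non-targeting sgRNAs, 16 (7.11%, 4.12% to 11.3%) were retained, against 526 of 13972 gene sgRNAs (3.76%, 3.46% to 4.09%) and 40 of 850 microRNA sgRNAs (4.71%, 3.38% to 6.35%). None of the 225 was at least 10-fold higher (up to 1.63%), against 38 gene sgRNAs (0.272%) and 1 microRNA sgRNA. The control interval holds the gene share, so this count does not set controls and gene sgRNAs apart. The highest non-targeting ratio was 7.46 (4.34 to 13.8), for NonTargetingControlGuideForHuman_0399 with 15 untreated and 112 survivor counts. NonTargetingControlGuideForHuman_0070 and NonTargetingControlGuideForHuman_0696 followed with 41 and 161 counts (ratio 3.92) and with 14 and 36 counts (ratio 2.57). Above the highest control ratio stood 47 of the 13972 gene sgRNAs and 2 of the 850 microRNA sgRNAs. With only 225 controls to set that highest ratio, these counts do not set the groups apart either. Totals without DHCR7 multiply every ratio by 1.52 and carry this highest control past 10-fold as well.

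Outside DHCR7, 38 measurable sgRNAs against 37 genes and 1 microRNA were at least 10-fold higher in survivors, with a median ratio of 21.5. The lower bound of the interval was also at least 10 for 28 of the 38. Values are given below as counts in untreated cells, RSL-3 survivors and RSL-3/LA survivors, in that order, followed by the ratio of RSL-3 survivors over untreated cells. Because DHCR7 took up 34.3% of the survivor counts, totals without DHCR7 multiply every ratio by 1.52.

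Genes of metabolism and transport included GSTZ1, the measurable sgRNA with the highest ratio outside DHCR7. GSTZ1 is the maleylacetoacetate isomerase of tyrosine breakdown, and its sgRNA had 92, 116136 and 39 counts, a ratio of 1262 (1029 to 1565), and held 7.91% of all survivor counts. PGRMC1, a heme-binding membrane protein that partners cytochrome P450 enzymes, had 76, 5163 and 2 counts and a ratio of 67.9 (54.1 to 86.3). UGT1A9, a glucuronosyltransferase of the liver, had 22, 562 and 123 counts and a ratio of 25.5 (16.7 to 41.1). Like most members of the group, these sgRNAs were low or absent among RSL-3/LA survivors, except UGT1A9. SLC35D2, a nucleotide sugar transporter of the Golgi, had 63, 1401 and 0 counts and a ratio of 22.2 (17.3 to 29.1), and GNPDA1, a glucosamine-6-phosphate deaminase, had 98, 1889 and 0 counts and a ratio of 19.3 (15.7 to 23.9). SPNS3, a predicted transporter of the spinster family, had 60, 2636 and 0 counts and a ratio of 43.9 (34.0 to 57.7). Nearer to the threshold was GDPD5, a glycerophosphodiester phosphodiesterase, with 159, 1695 and 0 counts (10.7, 9.05 to 12.6).

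Several targets act on RNA or protein. ASUN (current symbol INTS13), a subunit of the Integrator complex that cleaves nascent transcripts, had 100, 4646 and 2 counts and a ratio of 46.4 (38.1 to 57.2). UPF1, the RNA helicase of nonsense-mediated decay, had 97, 2953 and 1 counts and a ratio of 30.4 (24.9 to 37.6). Both genes are needed for growth in many cell lines. AARSD1, an editing protein for misacylated alanine tRNA, had 80, 1366 and 0 counts (17.1, 13.6 to 21.7). THOC6, of the mRNA export complex TREX, had 73, 853 and 0 counts (11.7, 9.19 to 15.0), and PSME1, a subunit of the PA28 proteasome activator, 21, 281 and 0 counts (13.4, 8.58 to 21.9).

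Other called targets belong to signalling, membrane and cytoskeletal genes, a grouping made here for description only. LY6K, a surface protein of the Ly6 family, had 13, 1776 and 0 counts and a ratio of 137 (79.6 to 257). ITSN1, a scaffold of endocytosis, had 120, 12468 and 4 counts and a ratio of 104 (86.8 to 125), and FAM107A, a stress-inducible actin-associated protein, had 141, 7288 and 5 counts and a ratio of 51.7 (43.7 to 61.5). The intervals of LY6K and ITSN1 overlap, as the LY6K ratio rests on 13 untreated counts. FAM212B (current symbol INKA2), an inhibitor of the kinase PAK4, had 36, 1189 and 1 counts (33.0, 23.7 to 47.4), IGF1, a growth factor made by the liver, 16, 445 and 0 counts (27.8, 16.9 to 49.1), and TRIP10, a CDC42-binding protein that bends membranes, 11, 250 and 0 counts (22.7, 12.5 to 46.1). TNFRSF11A, the receptor RANK, had 29, 600 and 0 counts (20.7, 14.2 to 31.1), and SOST, a secreted WNT inhibitor, 115, 1888 and 0 counts (16.4, 13.6 to 19.98). The tyrosine kinase FES, with 159, 2041 and 2 counts (12.8, 10.9 to 15.2), the opsin OPN3, with 128, 1536 and 2 counts (12.0, 10.0 to 14.5), and the caspase CASP14, with 170, 1944 and 0 counts (11.4, 9.77 to 13.4), were among the called sgRNAs that were abundant in untreated cells. PPP2R2C, a regulatory subunit of the phosphatase PP2A, had 80, 865 and 0 counts (10.8, 8.59 to 13.8), and WDR41, a partner of C9orf72, 49, 526 and 0 counts (10.7, 8.00 to 14.7).

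The remaining called targets were zinc finger, chromatin and sensory genes, a microRNA and a multicopy gene. Among zinc finger genes, ZNF726 had 12, 863 and 0 counts (71.9, 40.9 to 140), ZNF692 had 23, 683 and 0 counts (29.7, 19.6 to 47.1) and ZNF841 had 27, 708 and 0 counts (26.2, 17.9 to 40.1). TSPYL2, a relative of nucleosome assembly proteins, had 66, 1091 and 0 counts (16.5, 12.9 to 21.5), and the histone H2A gene HIST1H2AD (current symbol H2AC7) had 45, 486 and 1 counts (10.8, 7.94 to 15.0). PKDREJ, a polycystin-related gene of the testis, had 14, 542 and 0 counts (38.7, 22.9 to 71.3). Olfactory receptors detect odorants in the nose and are used mainly there. Of their 307 measurable sgRNAs, 2 were called (0.651%, 0.0790% to 2.33%), beside 0.272% of all measurable gene sgRNAs. These were OR10G2 with 18, 647 and 0 counts (35.9, 22.5 to 61.0) and OR1L1 with 201, 2359 and 0 counts (11.7, 10.2 to 13.6). hsa-mir-921, whose sequence heads the list above, had 26, 449 and 0 counts and a ratio of 17.3 (11.6 to 26.7). TBC1D3G, of a multicopy family, had 12, 175 and 645 counts (14.6, 8.14 to 28.8), so that it was the called sgRNA outside DHCR7 with more counts in RSL-3/LA survivors than in RSL-3 survivors.

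In RSL-3/LA survivors 25 of the 38 sgRNAs had 0 counts, 10 had 1 to 5, and 3 had more: GSTZ1 (39), UGT1A9 (123) and TBC1D3G (645). Without GSTZ1, the other 37 together held 4.70% of the survivor counts. The sgRNAs nearest below the 10-fold threshold targeted C9orf78, a spliceosome-associated protein (31, 310 and 0 counts, ratio 9.99), ST5 (current symbol DENND2B) (24, 232 and 0 counts, 9.66), the olfactory receptor OR13C3 (30, 285 and 0 counts, 9.49), CAPS2 (153, 1378 and 0 counts, 9.0) and DENND1C (22, 197 and 0 counts, 8.95). ST5 and DENND1C share the DENN domain of activators of Rab proteins.

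**Figure D2:**
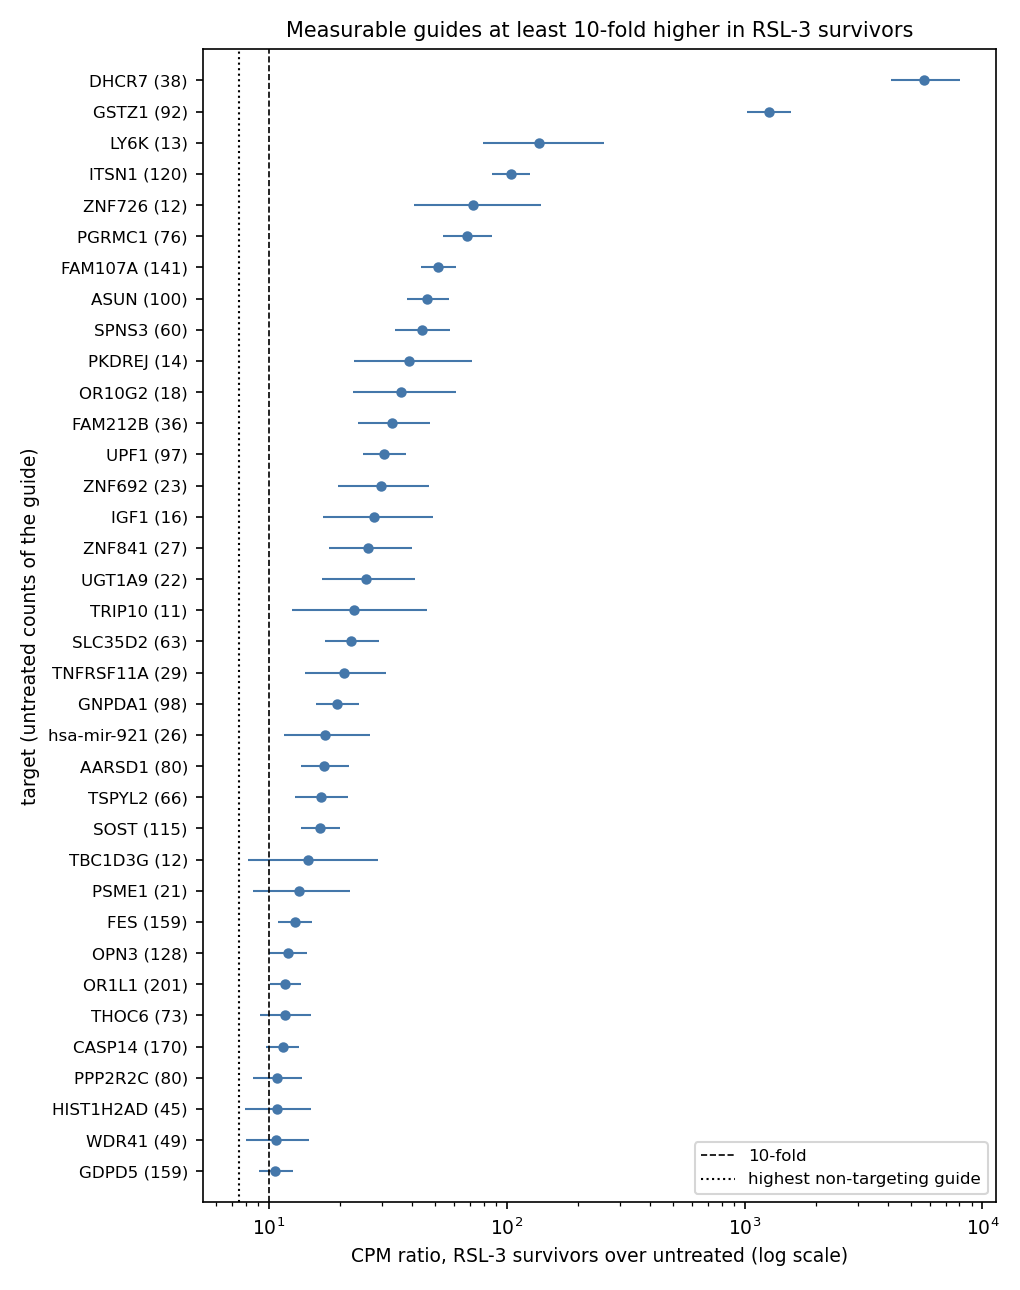
CPM ratio of RSL-3 survivors over untreated cells (horizontal, log scale) for 36 of the 39 measurable sgRNAs that were at least 10-fold higher, with exact 95% intervals for counting error as bars and the untreated counts of each sgRNA in brackets; 1 library per group. DHCR7 and GSTZ1 lie apart from the rest, the bars of 8 sgRNAs cross the 10-fold line, and none of those drawn reaches down to the highest non-targeting ratio of 7.46.

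The called genes were next examined through their other sgRNAs, as the library holds up to 6 per gene. The 38 targets outside DHCR7 had 181 other sgRNAs, of which 24 (of 17 targets) were measurable, with 16 to 277 untreated counts. All 24 had 0 survivor counts, beside 14465 of all 15047 measurable sgRNAs, so that their absence is near the background. For PGRMC1, sgRNAs with 146 and 16 untreated counts were at 0 beside the one that was 67.9-fold higher. For OPN3, sgRNAs with 48, 128 and 182 untreated counts were at 0, for UGT1A9 those with 134 and 232, for PSME1 those with 83 and 139, for ZNF726 those with 28 and 124, and for ASUN the one with 38. In each of these 17 targets the called sgRNA was thus the only measurable one with a survivor count. The same held for 233 of the 239 genes with at least 2 measurable sgRNAs of which any was retained. GSTZ1, LY6K, ITSN1, FAM107A and UPF1 were among the 21 targets without another measurable sgRNA, so that no such check could be made for them.

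Of the other sgRNAs with fewer than 10 untreated counts, 3 had survivor counts. Among them, a second ZNF841 sgRNA had 0 untreated and 141 survivor counts, and a second TRIP10 sgRNA had 6 and 1. The other 148 sgRNAs with 0 untreated counts were at 0 in survivors too.

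Over all genes, 10244 had a measurable sgRNA and 520 of these (5.08%) had a retained one. Among the 3132 genes with at least 2 measurable sgRNAs, 239 retained at least 1, 6 retained 2, and none had 2 with a ratio of at least 1. Only 2 genes had 2 measurable sgRNAs with more than 10 survivor counts each. In CAPS2, a calcium-binding protein gene, 1 sgRNA went from 105 to 15 counts and another from 153 to 1378. USP17L20 had 712 and 1103 counts for 1 sgRNA, 96 and 61 for another, and 148 and 0 for yet another. RBBP9, a serine hydrolase gene, had 166 and 277 counts (ratio 1.67, 1.37 to 2.03) for 1 sgRNA, whereas another had 130 and 2, with 764 in RSL-3/LA survivors. The transcription factor gene SOX6 (225 and 5, 155 and 10), the membrane protein gene TMEM215 (152 and 73, 140 and 4) and the olfactory receptor gene OR10G9 (21 and 3, 245 and 1) kept 2 sgRNAs at lower CPM than in untreated cells. In RSL-3/LA survivors, the TMEM215 sgRNA with 4 survivor counts had 1835 counts and the OR10G9 sgRNA with 1 had 185. The intervals of the 2 retained sgRNAs overlapped in SOX6 and lay apart in the other 5 genes.

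The retained sgRNAs with the lowest survivor counts were often abundant in the RSL-3/LA library. Of the 110 measurable sgRNAs with exactly 1 survivor count, 54 (49.1%, 39.4% to 58.8%) had 100 or more counts in RSL-3/LA survivors, against 320 of 14465 (2.21%) of those at 0 and 11 of 239 (4.60%) of those with 11 to 100. STK11, the tumour suppressor kinase LKB1, had an sgRNA with 89, 2 and 10157 counts. PSMD2, a proteasome subunit, had one with 153, 1 and 1893 counts, and LPCAT3, which loads polyunsaturated fatty acids onto phospholipids, one with 147, 2 and 937 counts. Without the 412 measurable sgRNAs at 100 or more RSL-3/LA counts, a filter chosen after seeing the data, 490 of 14635 (3.35%) were retained. The 39 called sgRNAs all had over 100 survivor counts. Whether reads passed between the libraries was not tested.

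**Figure D3:**
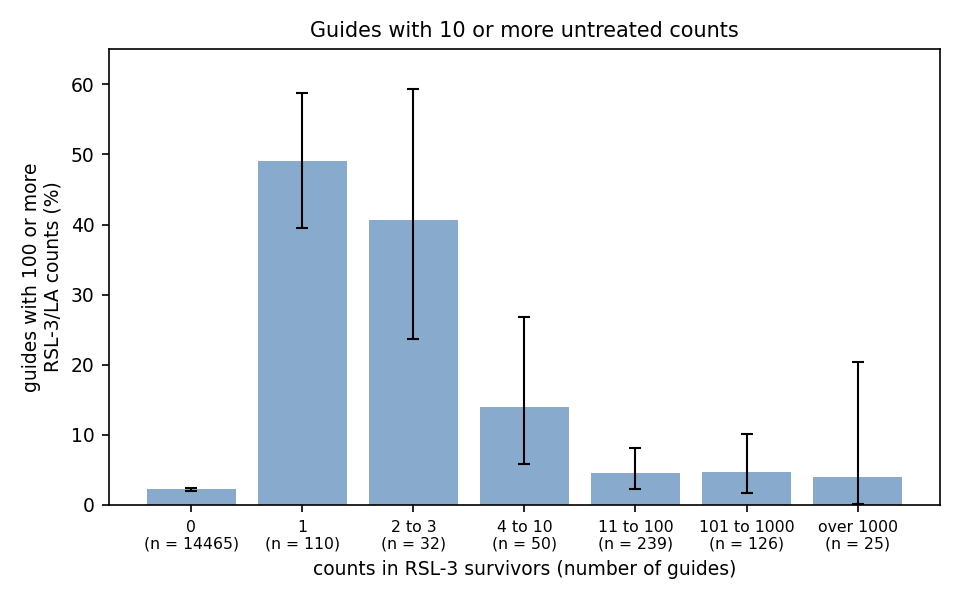
Percent of measurable sgRNAs with 100 or more counts in RSL-3/LA survivors (vertical) by their count in RSL-3 survivors (horizontal, number of sgRNAs in brackets), with exact 95% intervals for counting error. The share is 49.1% at 1 survivor count and 2.21% at 0.

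Most survivor counts came from sgRNAs that were rare or not counted in untreated cells. Enriched sgRNAs are those that reached 100 CPM in survivors with a fold of 10 or more over untreated cells, where untreated counts under 3 were set to 3. This held for 500 of 119461 sgRNAs (0.419%), against 494 targets: 469 of 111626 gene sgRNAs (0.420%, 0.383% to 0.460%), 20 of 6835 microRNA sgRNAs (0.293%, 0.179% to 0.452%) and 11 of 1000 non-targeting sgRNAs (1.10%, 0.550% to 1.96%). Of the 500, 408 had 0 untreated counts, 54 had 1 to 9 and 38 were measurable. The share counted in survivors was 2.18% (2.09% to 2.27%) of the 100308 sgRNAs with 0 untreated counts and 4.24% (3.44% to 5.17%) of the 2216 with 1 or 2, beside 3.87% of the measurable ones. The sgRNAs with 0 untreated counts held 25.9% of the survivor counts, those with 1 to 2 held 23.1%, those with 3 to 9 held 20.6% and the measurable ones 30.4%. Measurable sgRNAs outside DHCR7 held 15.6% of all survivor counts.

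The largest targets after DHCR7 differed in how their ratio was founded. MUC16, a transmembrane mucin and the antigen CA125, held 10.6% of the survivor counts through 1 sgRNA with 2 untreated and 155878 survivor counts, while another MUC16 sgRNA had 87 untreated and 0 survivor counts. FRG1, a nuclear protein linked to RNA processing, held 5.23% through an sgRNA with 1, 76719 and 53603 counts, and the endoplasmic reticulum chaperone HYOU1 held 3.26% through one with 1, 47872 and 38678 counts. Both were abundant in RSL-3/LA survivors too, unlike GSTZ1 and MUC16 (71 counts over all MUC16 sgRNAs). FAM102A (current symbol EEIG1) followed with 0 untreated and 13257 survivor counts (at least 4417-fold higher), COQ6, a monooxygenase of ubiquinone synthesis, with 1 and 12599, and MALSU1, an assembly factor of mitochondrial ribosomes, with 0 and 11646. A second MALSU1 sgRNA had 145 untreated, 1 RSL-3 and 426 RSL-3/LA counts. hsa-mir-3666 had 1 and 11393 counts for 1 sgRNA, and its sgRNAs with 32 and 8 untreated counts were at 0.

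DHCR7, the reductase of the last step of cholesterol synthesis from 7-dehydrocholesterol, had 2 enriched sgRNAs, with 8 and 286897 and with 38 and 216198 counts, of which the latter was measurable (ratio 5686, 4143 to 8036). Besides DHCR7, 5 genes had 2 enriched sgRNAs. PCBD1, which regenerates the biopterin cofactor of phenylalanine hydroxylase, had 1394 and 430 survivor counts against 0 untreated counts for both. SPATA18, a regulator of mitochondrial quality, had 1 and 868 counts for 1 sgRNA and 6 and 172 for another, and GLRA2, a glycine receptor subunit, 264 and 179 survivor counts against 0. ZBTB7C, a zinc finger gene, had 248 and 226 survivor counts against 0, while its measurable sgRNAs, with 233 and 67 untreated counts, were at 0 in survivors. PCBD1, GLRA2 and SPATA18 had no measurable sgRNA, and the only measurable DHCR7 sgRNA was an enriched one. Unlike for ZBTB7C, no check against other measurable sgRNAs could thus be made for these genes.

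Summed over its sgRNAs, a target can pass a fold that none of its measurable sgRNAs passes. Of 11219 targets with at least 10 untreated counts in all, 1586 had a survivor count and 88 (0.784%) were at least 10-fold higher, but only 26 of the 88 held a measurable sgRNA that was itself at least 10-fold higher. POR, the reductase that feeds electrons to cytochrome P450 enzymes, is an example. One POR sgRNA had 0 untreated and 5645 survivor counts (at least 1881-fold higher), whereas those with 143 and 89 untreated counts had 0. The sum over POR was 24.3-fold higher. KDM4D, a histone demethylase, likewise had 1 sgRNA with 1 and 10814 counts and another with 64 and 0.

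Genes of ferroptosis were read from lists of promoting and suppressing genes and beside all genes, of whose 111626 sgRNAs 2718 (2.43%) were counted in survivors. Of 162 sgRNAs against 27 genes that promote ferroptosis, 10 were counted (6.17%) and 4 were enriched (2.47%, beside 0.420% of all gene sgRNAs). Among the enriched were those against POR, LPCAT3 (0 and 466 counts) and SAT1 (0 and 203), a polyamine acetyltransferase. ACSL4, which activates arachidonic acid for phospholipids, had 1 sgRNA with 0 and 125 counts, below the enrichment threshold. Of the 20 measurable sgRNAs of this list, 2 were retained, both at lower CPM: FAR1, a fatty acyl-CoA reductase of ether lipid synthesis, with 148 and 62 counts (ratio 0.419), and LPCAT3 with 147 and 2. The 18 others, among them 3 against KEAP1 with 216, 209 and 145 untreated counts and 1 each against ALOX12 (242) and ACSL1 (241), were at 0. Of 156 sgRNAs against 26 suppressing genes, 1 was counted, against the mitochondrial iron-sulfur protein CISD1 (20 counts), and all 22 measurable ones were at 0 (retained share up to 15.4% by the interval, against 3.76% of all measurable gene sgRNAs). They included both cystine transporter genes SLC7A11 (106 and 64 untreated counts) and SLC3A2 (161, 53 and 18), the ferritin gene FTH1 (221 and 190) and GCLM (141 and 127) of glutathione synthesis.

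In cholesterol synthesis outside DHCR7, none of 168 sgRNAs against 28 genes had a survivor count (up to 2.17% of sgRNAs by the interval). The 16 measurable ones were led by NSDHL, a sterol dehydrogenase, with 368 untreated counts and INSIG1, a sensor that retains SREBP in the endoplasmic reticulum, with 197. EBP (193 untreated counts), LSS (160 and 45), and SC5D (64), which act before DHCR7, were at 0 as well. Aromatic amino acid breakdown and biopterin synthesis held 8.04% of the survivor counts through GSTZ1 and PCBD1, the 3 counted and enriched sgRNAs of 78 (3.85%). Of this share, 7.91% came from 1 GSTZ1 sgRNA, and the list was assembled with the enrichment of both genes known. The other 5 measurable sgRNAs of this list, 2 each against SPR (195 and 161) and QDPR (163 and 78) and 1 against PCBD2 (185), were at 0. In ubiquinone synthesis 3 of 78 sgRNAs (3.85%) were counted, COQ6 at 12599 counts, ADCK4 at 36 and COQ4 at 20. The 7 measurable ones, 3 of them against COQ9 (164, 94 and 77), were at 0.

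Among P450 enzymes and their electron transfer partners, 8 of 177 sgRNAs were counted (4.52%, 1.97% to 8.71%), beside 2.43% of all gene sgRNAs. The 3 enriched ones (1.69%, 0.351% to 4.87%, beside 0.420%) targeted POR, CYP4F11 (0 and 5365 counts) and PGRMC1. Of the 24 measurable ones, PGRMC1 and CYP27A1, a mitochondrial sterol hydroxylase (16 and 50 counts, ratio 3.12), were retained. In iron handling 4 of 132 (3.03%) were counted: the iron importer SLC11A2 (0 and 315 counts), transferrin TF (150 and 137, ratio 0.913), HFE (0 and 21) and SLC25A28 (0 and 2). In ether lipid and peroxisome genes 5 of 123 (4.07%) were counted, led by the choline phosphotransferase CHPT1 (0 and 710) and FAR2 (1 and 429). Endoplasmic reticulum chaperones had 4 of 120 (3.33%) counted, HYOU1 followed by HSPA5 (0 and 51) and CRELD2 (0 and 30), with none of 12 measurable sgRNAs retained. Of 171 sgRNAs of glutathione transferases and carbonyl detoxification, 1 was counted, against GSTT1 (0 and 182), while another GSTT1 sgRNA had 121 untreated counts and 0 in survivors. GSTZ1, a glutathione transferase of the zeta class, was placed in the list of aromatic amino acid breakdown and is not among the 171.

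For other routes of death and growth, 8 of 132 apoptosis sgRNAs were counted (6.06%, beside 2.43% of all gene sgRNAs). They included FAS (0 and 181 counts), BMF (0 and 156, 0 and 115), PMAIP1 (57 and 141, ratio 2.47) and FADD (0 and 121), all parts of death receptor or BH3-only signalling. A measurable FAS sgRNA (170 untreated counts) was at 0. Of the tumour suppressor list 5 of 162 (3.09%) were counted, among them CDKN1A (0 and 162), a cell cycle inhibitor. In adhesion and Hippo signalling 5 of 120 (4.17%) were counted: MOB1B, a cofactor of LATS kinases, with 244 and 1406 counts (ratio 5.76, 5.02 to 6.62), CTNNA1, alpha-catenin, with 6 and 379, WWTR1 with 0 and 332, SAV1 with 0 and 49, and a second CTNNA1 sgRNA with 0 and 1. In hepatocyte identity 3 of 108 (2.78%) were counted, with the bile acid receptor NR1H4 at 156 and 12, and in drug transport 4 of 108 (3.70%), with SLCO1B3 at 0 and 47 and SLCO1B1 at 22 and 29.

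Lists without a known tie to RSL-3 give a scale for these counts. Olfactory receptors, with 2204 sgRNAs against 375 genes, had 66 counted (2.99%) and 14 enriched (0.635%), and 20 of 307 measurable ones (6.51%, 4.02% to 9.88%) were retained, an interval above the 3.76% of all measurable gene sgRNAs. Mucins had 3 of 78 (3.85%) counted, MUC16, MUC12 (0 and 432) and MUC4 (0 and 1), and 2 enriched (2.56%, beside 0.420%). This list was chosen with the enrichment of MUC16 known, so it gives no neutral scale. Cytosolic ribosomal proteins, whose loss stops growth, had 7 of 510 counted (1.37%, 0.554% to 2.81%) and none enriched, yet 1 of their 41 measurable sgRNAs was higher in survivors, that against RPS2 with 212 and 1094 counts (ratio 5.16, 4.45 to 6.0). A second RPS2 sgRNA had 88 untreated counts and 0 in survivors. The proteasome core had 2 of 186 counted, PSMA1 with 139 and 40 (ratio 0.288) and PSMD2 with 153 and 1, and 3 further PSMD2 sgRNAs (213, 111 and 77 untreated counts) were at 0. Counting intervals of most lists held the share of all genes for counted sgRNAs, so that at this depth these lists could not be told apart from all genes. The ferroptosis promoting list (6.17%, 3.00% to 11.1%) and the apoptosis list (6.06%, 2.65% to 11.6%) had intervals above 2.43%, and that of cholesterol synthesis outside DHCR7 lay below it. No list was tested, and the lists were chosen with earlier results known. The olfactory receptors, without a known tie to RSL-3, missed the share of all genes on another measure, that of retained measurable sgRNAs. For all counted sgRNAs their interval (2.32% to 3.79%) held 2.43%. Nothing is read from these intervals. Among the 10 counted sgRNAs of ferroptosis promoting genes, those of LPCAT3 with 4 and 2 survivor counts had 673 and 937 RSL-3/LA counts.

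Among microRNA targets, hsa-mir-3152 had 47, 366 and 0 counts (ratio 7.78, 5.73 to 10.8) and hsa-mir-4417 had 36, 153 and 0 (4.25, 2.94 to 6.29), after hsa-mir-921. The highest survivor counts after hsa-mir-3666 were 3315 for hsa-mir-668 and 2135 for hsa-mir-30b, both from 0 untreated counts. The enriched non-targeting controls reached the same range: NonTargetingControlGuideForHuman_0664 had 1 untreated and 3794 survivor counts, NonTargetingControlGuideForHuman_0846 had 0 and 2768, and NonTargetingControlGuideForHuman_0882 had 0 and 2264.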

How the data were processed

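Genomic DNA of untreated Huh-7 cells, RSL-3 survivors and RSL-3/LA survivors gave 1 library each. The sgRNA cassettes were PCR-amplified and sequenced by the authors (MiSeq), and MAGeCK, also named in the submitters' processing notes, turned the reads into counts. Trimming and mismatch settings are not given in the sources used here. The deposited values are raw counts per sgRNA, not normalized, in 2 tables whose 119461 untreated values are identical. The authors' MAGeCK tables per target hold their own scores, p-values, false discovery rates and ranks and were not used.

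From the counts, CPM over column totals, CPM ratios with exact 95% intervals from the binomial share of survivor counts, and exact (Clopper-Pearson) intervals of shares were computed. Folds against 0 counts are bounds at a floor of 3 counts that take the other count as exact, so the exact intervals allow smaller folds. Totals were 1466896 (untreated), 1467705 (RSL-3) and 1485991 (RSL-3/LA), and the script was tested on simulated data. No test between conditions was made, because each has 1 library. Members and gene lists were chosen with earlier results of these data known. Named are the 25 targets outside DHCR7 with the highest ratio among measurable sgRNAs that were at least 10-fold higher, DHCR7, the 10 targets with the largest share, targets with 2 enriched sgRNAs, up to 3 leading members per list, the 5 sgRNAs most abundant in untreated cells, the leading 3 microRNA and 3 non-targeting sgRNAs, and the 5 sgRNAs on each side of 10-fold. Other names were chosen after their values were seen. A few items that these rules select are not reported here, but stay in all counts. Of 18992 gene symbols, 17419 are current in the GRCh38.p14 table of RefSeq, 1368 matched through an older name and 205 did not match. Alternatives changed thresholds, totals and denominators. Software was Python 3.11.15 with pandas 2.3.3, scipy 1.17.1, matplotlib 3.10.9 and numpy 2.4.6.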

Additional observations from a re-analysis of the deposited data

Results flagged for a closer look

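Besides DHCR7, 2 measurable sgRNAs that were at least 10-fold higher in RSL-3 survivors also stood above untreated cells in the RSL-3/LA library, which lies outside the comparison reported here. The UGT1A9 sgRNA was 5.52-fold higher in RSL-3/LA survivors than in untreated cells, and the TBC1D3G sgRNA 53.1-fold higher. Both comparisons share the untreated library, in which these sgRNAs had 22 and 12 counts.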

How the results depend on the processing

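No paired analysis was possible because a condition consists of a single library, and none could be left out. The ratios of the 39 called sgRNAs could not turn their direction under these alternatives. The other totals raise every ratio, and a pseudocount cannot carry a ratio past 1. Other retained sgRNAs near a ratio of 1 crossed it with other totals, as the shares counted but lower show. The 3.87% of measurable sgRNAs retained became 2.98%, 2.65% and 1.02% when 3, 10 and 100 survivor counts were asked for, and 3.35% without sgRNAs at 100 or more RSL-3/LA counts, an alternative chosen after seeing the data. The 0.259% at least 10-fold higher became 0.139% with a minimum of 100 untreated counts, 0.425% and 0.140% at folds of 5 and 20, and 0.558% with totals without the 10 most abundant sgRNAs of either library. The 2.66% counted but lower became 1.78% at 3 survivor counts, 2.40% with totals without DHCR7, 1.92% without the 10 most abundant sgRNAs, and 2.17% without sgRNAs at 100 or more RSL-3/LA counts. The 15.6% share of measurable sgRNAs outside DHCR7 became 16.4%, 15.2%, 14.5% and 4.34% at minimums of 5, 20, 50 and 100 untreated counts, the last without GSTZ1, and 23.8% of the counts outside DHCR7. The 500 enriched sgRNAs became 303 at 200 CPM and 83 at 1000 CPM, and the 6 targets with 2 enriched sgRNAs became 11, 3 and 1 at 50, 200 and 1000 CPM and 10 with totals without DHCR7. Ratios of the 39 called sgRNAs are multiplied by 1.52 with totals without DHCR7, by 2.83 without the 10 most abundant sgRNAs and by 1.44 with totals of non-targeting sgRNAs. With these factors above 1, none could go below 10. Each of these factors also carries the highest non-targeting ratio, 7.46 with column totals, above 10. A pseudocount of 1 CPM lowers the ratios of the called sgRNAs, and none went below 10 with it (lowest 10.4). Depth limits the low end: below 30 untreated counts, a survivor count of 0 does not show a 10-fold loss at the floor of 3 counts. By the exact interval, 30 untreated counts do not show it either (ratio up to 0.131).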
